A study of Mus musculus with 6 samples.

Results

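The genes described here are 8 annexins (Anxa1, Anxa2, Anxa3, Anxa4, Anxa5, Anxa6, Anxa7 and Anxa11) and 2 S100 genes whose proteins bind annexins (S100a10 and S100a11). These 10 genes were chosen as a functional family, with earlier results of the same data known, and were matched to Ensembl identifiers. A value was found for 9 of them, among 15441 genes with a value in any library, because Anxa11 had no value under its own identifier.

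The study followed the cerebral cortex of mice after a focal ischemic stroke made by photothrombosis, in which the dye Rose Bengal is given and light through the skull clots the cortical vessels. Male C57/BL6J mice aged 6 to 8 weeks were used. RNA of the whole ipsilateral cortex was taken at day 1, 3, 7, 14 or 28 post-stroke, and the control was the cortex of sham-operated mice, not illuminated, taken 7 days after the operation. For each of the 6 libraries (control and 5 time points) RNA from 3 mice was combined, so there was 1 library per group, and no difference could be checked against a replicate. Libraries were poly(A)-selected and strand-specific, with paired-end reads of 150 bases, and an average depth of 33.6 M reads is stated, while the depth of each library is unknown. A pooled library gives no spread between mice, and a control taken at a single time does not follow the effect of the operation over the other days. The tissue holds every cell type of the cortex, so more cells of a type and more RNA per cell cannot be told apart.

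Annexins are soluble proteins that bind phospholipid membranes when calcium rises, through a conserved core of repeats, while their variable N-terminal ends bind other proteins. S100 proteins are small calcium sensors of the EF-hand type, and S100a10 and S100a11 bind the N-terminal ends of Anxa2 and Anxa1. Annexins are known for membrane repair, vesicle traffic, fibrinolysis at the cell surface, the resolution of inflammation and the binding of phosphatidylserine on dying cells.

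Levels are given as FPKM, the number of sequenced fragments of a transcript divided by its length and by the size of the library, so that levels of different genes can be set side by side. Changes are given as the log2 ratio to control, with 0.1 added to both FPKM values first, so that ratios of genes with low values come out too small. A gene was compared when its FPKM was at least 1 in the post-stroke or the control library, and was called higher or lower past a log2 ratio of 1 in size, without a test. A gene under 1 FPKM in control was compared only where it reached 1 FPKM after stroke, so it could be called higher but not lower. A gene not listed in 1 of the 2 libraries was taken as 0 there, so a call can rest on a missing entry, which is no measurement of absent expression.

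Of the 9 genes, 5 passed the threshold upward on at least 1 day, and their time courses were not the same. Past the threshold were 3 of the 9 genes at day 1 (Anxa1, Anxa2 and S100a11), against 5.11% of all genes compared. The count was 5 at day 3 and 5 at day 7 (the same 3 with Anxa3 and Anxa4), where 8.54% and 8.53% of all genes were higher. At day 14 it was 4 (Anxa1, Anxa2, Anxa4 and S100a11), against 8.97%, and at day 28 it was 0, against 3.68%. None of the 9 genes was lower past the threshold at any day, where 4.48%, 2.53%, 2.12%, 6.92% and 2.79% of all genes were lower at days 1, 3, 7, 14 and 28.

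The median log2 ratio of the 9 genes was 0.61, 1.32, 1.45, 0.95 and 0.17 on days 1, 3, 7, 14 and 28. The median over all genes compared lay between 0.01 at day 1 and 0.10 at day 14. Among the post-stroke libraries, 3 of the 9 genes had their highest value at day 3, 3 at day 7, and 1 each at days 1, 14 and 28.

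**Figure D1:**
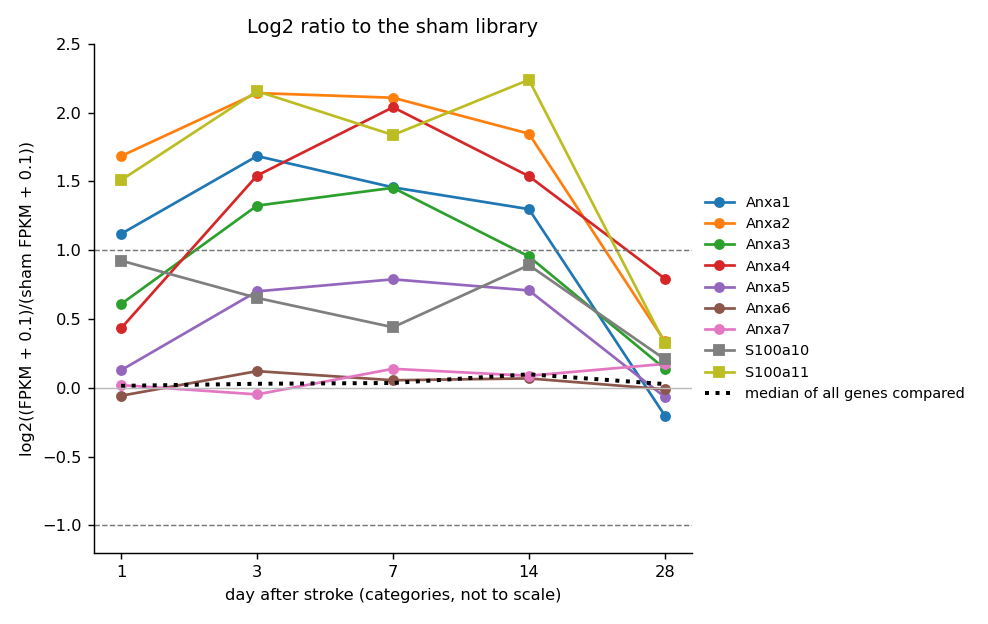
Log2 ratio to the control library (y axis, after adding 0.1 to each FPKM) of the 9 genes with a value at days 1, 3, 7, 14 and 28 (x axis, categories). Circles are annexins, squares S100 genes, the dotted line is the median of all genes compared, and dashed lines mark a log2 ratio of 1 in size. Anxa2 and S100a11 lie above 1 from day 1 to day 14, and Anxa6 and Anxa7 lie near 0 throughout.

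The longest annotated transcripts of S100a11 and S100a10 measure 511 nt and 685 nt, and those of the 7 annexins with a value 1595 nt (Anxa3) to 2904 nt (Anxa7). Taken over all genes, whose values do not vary independently, the Spearman rho of log2 ratio and transcript length was -0.254 for day 1 and -0.413 for day 14, against 0.00325, -0.0893 and -0.036 for days 3, 7 and 28. Short transcripts therefore had higher ratios at days 1 and 14, and values corrected for this trend are given for Anxa1, Anxa3, Anxa5, S100a10 and S100a11.

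Anxa2 and S100a10 form a complex at the cell surface that binds plasminogen and its activator, and S100a10 is an S100 protein that has lost the binding of calcium. Anxa2 (chr9:69453620-69491795, plus strand, mm10) had 4.14 FPKM in control and 13.5, 18.6, 18.2, 15.2 and 5.25 on days 1, 3, 7, 14 and 28. As log2 ratios to control these were 1.69, 2.14, 2.11, 1.85 and 0.34 on days 1, 3, 7, 14 and 28. Days 3 and 7 were thus nearly level, and the gene was near control by day 28. S100a10 (chr3:93555080-93564643, plus strand) had 20.8 FPKM in control and 39.5, 32.7, 28.2, 38.6 and 24.0 on days 1, 3, 7, 14 and 28. Its log2 ratio was 0.92, 0.65, 0.44, 0.89 and 0.21 at days 1, 3, 7, 14 and 28, so it came close to the threshold at days 1 and 14 and passed it at no day. With the correction for transcript length, S100a10 had log2 ratios of 0.76, 0.60, 0.37 and 0.47 on days 1, 3, 7 and 14, and the high value at day 14 was the one most lowered.

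The balance of the pair moved with time. S100a10 stood at 5.02 times the FPKM of Anxa2 in control and 2.92, 1.76, 1.55, 2.55 and 4.56 times on days 1, 3, 7, 14 and 28. In every library S100a10 was the more abundant transcript, and the surplus was smallest at days 3 and 7, when Anxa2 was highest.

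Transcripts of Anxa2 started at 4 places, of which 3 were listed in all 6 libraries, and the 2 with most of the signal behaved differently at day 1. The start at the first exon (chr9:69453620, where an annotated protein-coding transcript begins) had 2.36 FPKM in control and 12.6, 11.5, 11.98, 8.74 and 3.43 on days 1, 3, 7, 14 and 28. A start inside the gene (chr9:69478465, where a transcript annotated with a retained intron begins) had 1.496 FPKM in control and 0.828, 6.91, 5.75, 5.67 and 1.83 on days 1, 3, 7, 14 and 28. The internal start made up 36.1% of all Anxa2 starts in control, 37.1%, 31.6%, 37.4% and 34.7% on days 3, 7, 14 and 28, and 6.12% at day 1. Day 1 thus differed from the other 5 libraries in where Anxa2 transcripts began, as far as short reads can place a start.

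Counted from the first exon only, an alternative chosen after the values were seen, the log2 ratio of Anxa2 was 2.37, 2.24, 2.30, 1.85 and 0.52 on days 1, 3, 7, 14 and 28. The largest ratio then lay at day 1 in place of day 3. On the same count the log2 ratio of Anxa2 to S100a10 within a library was -3.14 in control and -1.64, -1.51, -1.24, -2.14 and -2.81 on days 1, 3, 7, 14 and 28, against -2.33, -1.54, -0.81, -0.63, -1.35 and -2.19 with all starts. On both counts control was lowest and day 7 highest, while days 1 and 14 changed places.

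**Figure D2:**
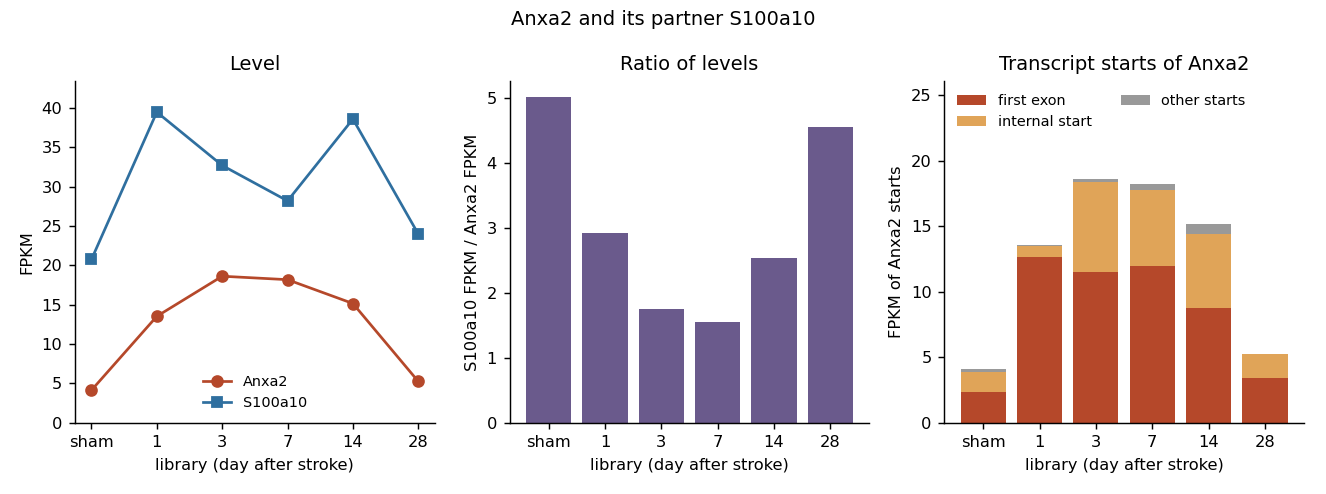
Anxa2 and S100a10 in the 6 libraries (x axis of each panel). The left panel gives FPKM of both genes, the middle panel the FPKM of S100a10 divided by that of Anxa2, and the right panel the FPKM of Anxa2 transcripts by where they start, stacked. The ratio is lowest at day 7 (1.55) and highest in control (5.02), and the internal start is a small part of the bar at day 1 only (6.12%).

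Anxa1 is a mediator of the resolution of inflammation that acts on formyl peptide receptors, and S100a11 binds its N-terminal end. Anxa1 (chr19:20373428-20390944, minus strand) had the lowest level in control of the 9 genes, close to that of Anxa4. It had 1.29 FPKM in control and 2.92, 4.37, 3.72, 3.32 and 1.11 on days 1, 3, 7, 14 and 28. Its log2 ratio was 1.12, 1.68, 1.46, 1.30 and -0.20 on days 1, 3, 7, 14 and 28. Corrected for transcript length, it was 0.99 at day 1 and 0.96 at day 14, just under the threshold, and past it at days 3 and 7. With 1 FPKM in place of 0.1 as the value added (the pseudocount) it was 0.78 at day 1 and 0.92 at day 14, which also ended the call at both days.

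S100a11 (chr3:93520488-93526287, plus strand) had 6.06 FPKM in control and 17.5, 27.4, 21.9, 29.0 and 7.61 on days 1, 3, 7, 14 and 28. Its log2 ratio was 1.51, 2.16, 1.84, 2.24 and 0.32 at days 1, 3, 7, 14 and 28. S100a11 was past the threshold at days 1 to 14 and dipped at day 7, the day at which 3 annexins were highest. Corrected for transcript length, its ratio was 1.35, 2.10, 1.77 and 1.82 on days 1, 3, 7 and 14, so that its largest value lay at day 3. S100a11 stood at 4.70 times the FPKM of Anxa1 in control and 5.97, 6.26, 5.90, 8.73 and 6.86 times on days 1, 3, 7, 14 and 28. Unlike Anxa2 with S100a10, Anxa1 did not approach its partner in level after stroke.

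Of the members past the threshold at any day, Anxa2 with all its starts and S100a11 had the most similar time courses. The distance between 2 genes was taken as the Euclidean distance of their 5 log2 ratios, and it was 0.508 for Anxa2 and S100a11, against 1.30 for Anxa1 and S100a11 and 2.55 for Anxa2 and S100a10. With the first-exon start of Anxa2 only, the alternative chosen after the values were seen, its distance to S100a11 was 1.076, more than the 0.790 between Anxa1 and Anxa3, so this ranking turns on the internal start. The reference sequence around the first-exon start of Anxa2 and the start of S100a11 is shown because these were the members' windows with a match to the AP-1 motif TGANTCA, in capitals (RefSeq, GRCm38.p6, plus strand). The window of Anxa2 is chr9:69453433-69453732 and that of S100a11 is chr3:93520246-93520545, and both hold the 5' end of the gene's first exon at their right end.
Anxa2 promoter: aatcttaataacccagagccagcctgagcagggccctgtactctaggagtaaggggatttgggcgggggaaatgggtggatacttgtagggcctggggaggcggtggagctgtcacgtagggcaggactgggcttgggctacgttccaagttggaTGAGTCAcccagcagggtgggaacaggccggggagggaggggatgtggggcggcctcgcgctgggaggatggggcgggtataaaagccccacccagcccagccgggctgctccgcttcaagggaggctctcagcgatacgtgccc
S100a11 promoter: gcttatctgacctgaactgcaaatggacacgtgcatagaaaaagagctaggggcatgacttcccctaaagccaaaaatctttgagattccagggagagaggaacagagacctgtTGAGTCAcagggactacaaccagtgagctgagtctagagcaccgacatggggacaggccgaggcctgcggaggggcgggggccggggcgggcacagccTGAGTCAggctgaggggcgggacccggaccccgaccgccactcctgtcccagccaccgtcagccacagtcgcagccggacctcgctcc

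Distances are counted from the RefSeq start, chr9:69453683 for Anxa2 and chr3:93520496 for S100a11, which lies inside the gene span given above. The Anxa2 window held 1 match to TGANTCA, 95 bases before that start, and the S100a11 window held 2, at 136 and 38 bases before it. Both strands were searched. In the table of promoters, 7 of the 10 members had an entry, with 9 windows in all, since Anxa4 and Anxa7 had 2 starts each and the windows of Anxa7 overlap. TGANTCA was found in 2 of these 9 windows, those of Anxa2 and S100a11, and in 7.81% of 32851 promoters of the same length. The GC box GGGCGG was found in 6 of the 9 windows and in 35.7% of all promoters, and TATAAA in 2 of the 9 (Anxa1 and Anxa2) and 13.6%. A 10-base NF-kB motif was found in 1 of the 9, the outer window of Anxa4, and in 1.63% of all promoters. The AP-1 matches overlapped 0 matches to the other 3 motifs. A match is a description of letters in a window, and binding there was not measured.

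Anxa3, which is abundant in neutrophils, and Anxa4, which is abundant in secretory epithelia, were slower than Anxa2 and were highest at day 7. Anxa3 (chr5:96793339-96845966, plus strand) had 5.88 FPKM in control and 9.03, 14.9, 16.3, 11.5 and 6.49 on days 1, 3, 7, 14 and 28. Its log2 ratio was 0.61, 1.32, 1.45, 0.95 and 0.14 on days 1, 3, 7, 14 and 28, and at day 14 it was 1.19 when the gene value was taken from transcript ends only and 0.59 when corrected for transcript length. The Anxa3 start at chr5:96793385 was highest at day 3 (13.9 FPKM), with 5.11 in control, 5.72 at day 1 and 8.14 at day 7. A start listed at day 7 only (chr5:96794196) added 6.38 FPKM there, and 1 listed at day 1 only added 2.00. From transcript ends, Anxa3 had 14.3 FPKM at day 3 and 14.8 at day 7, so these days were nearly level. Anxa4 (chr6:86736840-86793584, minus strand) had 1.34 FPKM in control and 1.84, 4.09, 5.81, 4.07 and 2.39 on days 1, 3, 7, 14 and 28. Its log2 ratio was 0.43, 1.54, 2.04, 1.54 and 0.79 at days 1, 3, 7, 14 and 28. Anxa4 had the largest ratio of the 9 genes at day 28, when the next largest was 0.34 for Anxa2.

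Anxa5, which binds phosphatidylserine and is used to stain dying cells, was among the most abundant members and passed the threshold at no day. Anxa5 (chr3:36448923-36475894, minus strand) had 26.7 FPKM in control and 29.2, 43.4, 46.2, 43.6 and 25.5 on days 1, 3, 7, 14 and 28. The log2 ratio of Anxa5 was 0.13, 0.70, 0.79, 0.71 and -0.07 at days 1, 3, 7, 14 and 28. Corrected for transcript length, it was 0.37 at day 14. In FPKM its difference from control at day 7 was nevertheless larger than that of any other annexin, and Anxa5 was the most abundant of the 9 genes at days 3, 7 and 14.

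Anxa6, the largest annexin, with a duplicated core, and Anxa7, which binds the calcium sensor sorcin, kept nearly level FPKM. Anxa6 (chr11:54979108-55033445, minus strand) ranged from 28.6 FPKM at day 1 to 32.4 at day 3, with 29.8 in control. Anxa7 (chr14:20455260-20480133, minus strand) ranged from 19.6 FPKM at day 3 to 22.8 at day 28, with 20.2 in control. The highest value was 1.13 times the lowest for Anxa6 and 1.17 times for Anxa7. No direction is given for these 2 genes, because the sign of their small ratios turned with the scaling at day 14, where Anxa6 had 0.07 as deposited and -0.03 when libraries were scaled by the median ratio.

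The order of the members by level differed between libraries. In control it was Anxa6, Anxa5, S100a10, Anxa7, S100a11, Anxa3, Anxa2, Anxa4 and Anxa1, from 29.8 to 1.29 FPKM. At day 7 it was Anxa5, Anxa6, S100a10, Anxa7, S100a11, Anxa2, Anxa3, Anxa4 and Anxa1, from 46.2 to 3.72 FPKM. At day 28 the order was that of control, from 29.6 for Anxa6 to 1.11 for Anxa1. Neighbours such as S100a10 and Anxa7 in control (a ratio of 1.03) or S100a11 and Anxa3 in control (1.03) cannot be ordered, since no spread between replicates is known. Summed over the 7 annexins with a value, the level was 89.4 FPKM in control and 106, 137, 143, 130.4 and 93.1 on days 1, 3, 7, 14 and 28.

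**Figure D3:**
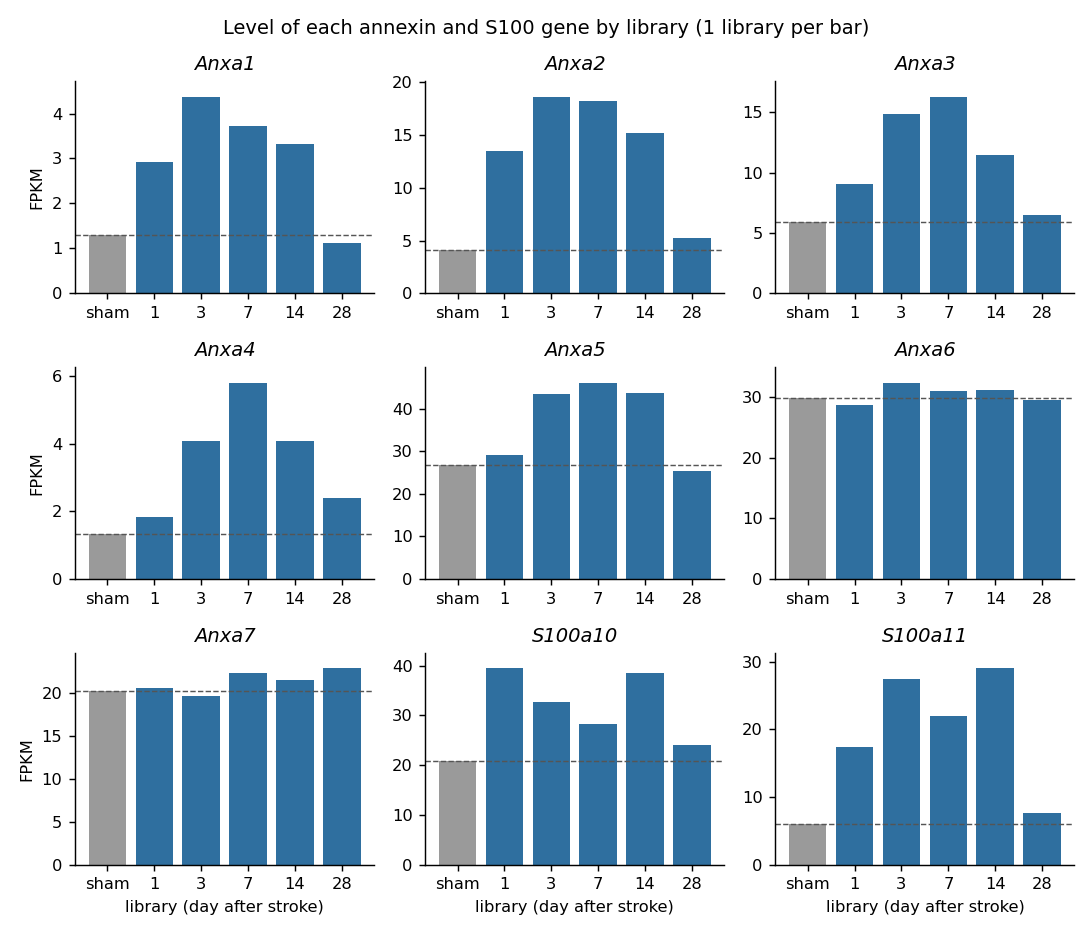
FPKM (y axis, from 0) of each of the 9 genes with a value in the control library (grey) and at days 1, 3, 7, 14 and 28 (blue), with 1 library per bar and a dashed line at the control level. Anxa1, Anxa2, Anxa3 and Anxa4 form a single hump with a top at day 3 or 7, S100a10 and S100a11 are lower at day 7 than at days 3 and 14, and Anxa6 and Anxa7 stay near their control level.

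Although Anxa6 and Anxa7 kept their total level, the estimated make-up of their transcripts differed between single libraries. Each has an exon that is either included or skipped, and its inclusion is the FPKM of transcripts with the exon as a share of those with and without it. In Anxa6 this is exon 21 of 26 (chr11:54987051-54987068, minus strand), which has 18 nt and adds 6 codons. In Anxa7 it is exon 6 of 14 (chr14:20467458-20467523, minus strand), which has 66 nt and adds 22 codons and is known from the form of the protein found in brain and muscle. Both exons keep the reading frame. They are shown because their inclusion differed between libraries, although shifts of 20 points or more were seen in 8.01% to 9.42% of all exons compared, by day. Each exon is in capitals, with 20 bases of the neighbouring exons on each side (GENCODE M21 transcripts, GRCm38).
Anxa6 exon: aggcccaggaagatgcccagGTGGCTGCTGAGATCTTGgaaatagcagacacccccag
Anxa7 exon: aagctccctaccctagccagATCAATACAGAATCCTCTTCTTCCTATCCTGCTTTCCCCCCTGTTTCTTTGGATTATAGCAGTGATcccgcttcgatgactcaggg

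Of the Anxa6 transcripts that either include or skip the exon, 61.6% included it in control. On days 1, 3, 7, 14 and 28 this share was 37.2%, 48.4%, 47.5%, 48.4% and 50.7%. Transcripts without it had 9.67 FPKM in control and 17.8 at day 1, and those with it 15.5 and 10.6 FPKM. Inclusion was thus lower than control in all 5 post-stroke libraries, and lowest at day 1, where it fell by 24.4 percentage points. All 5 differences share the same single control library, so they do not check each other. A shift of 20 points or more was seen in 8.73% of the 6308 exons compared at day 1, and one at least as large as that of Anxa6 in 6.86%. A second place where Anxa6 transcripts end, upstream of this exon (chr11:54990950-54991444), had 4.61 FPKM in control, 2.68 at day 3 and 0.160 to 0.386 in the other libraries, so control and day 3 stood apart from the other 4 libraries in this feature of Anxa6. Transcripts that end there are not in the share of inclusion, which is thus raised most in control. Set against all Anxa6 starts, transcripts with the exon had 15.5 of 29.8 FPKM in control, 10.6 of 28.6 at day 1 and 14.9 of 29.6 at day 28.

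The Anxa7 exon was included in 85.2% of the transcripts in control and 84.3%, 56.1%, 67.0%, 80.0% and 81.4% on days 1, 3, 7, 14 and 28. Transcripts without it had 2.99 FPKM in control and 3.21, 8.58, 7.34, 4.30 and 4.25 on days 1, 3, 7, 14 and 28. The skipped form was highest at day 3 and came down step by step, while the included form was lowest at day 3 with 10.98 FPKM, against 17.2 in control. Inclusion fell by 29.1 points at day 3, a size reached by 4.58% of 6512 exons, and by 18.2 points at day 7, reached by 9.01% of 6559 exons. A shift of 20 points or more was seen in 8.75%, 8.05%, 9.42% and 8.01% of the exons compared on days 3, 7, 14 and 28, so shifts of this size were not rare in these libraries. Of the post-stroke libraries, 1 passed 20 points for Anxa6 and 1 for Anxa7.

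**Figure D4:**
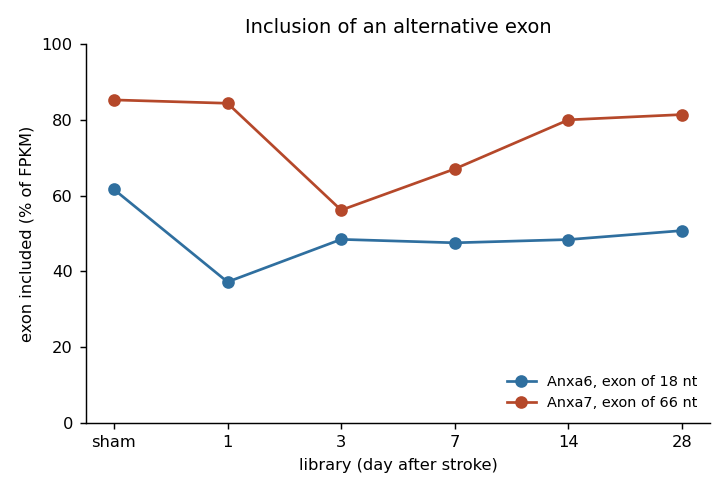
Inclusion of the alternative exon of Anxa6 (18 nt) and of Anxa7 (66 nt) in the 6 libraries (x axis), as a percentage of the FPKM of transcripts with and without the exon (y axis). Anxa6 is lowest at day 1 (37.2%) and Anxa7 at day 3 (56.1%).

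Anxa11 binds the calcium sensor Pdcd6 and S100a6, and links RNA granules to lysosomes. No event was assigned to Anxa11 (chr14:25842156-25886804, plus strand). A joined locus on the same strand, chr14:25842156-26026535, was assigned to Gm2260, whose annotated place is chr14:26016431-26025837, and it begins at the annotated start of Anxa11. The transcripts starting there (chr14:25842156-25842295) had 5.85 FPKM in control and 9.74, 7.598, 5.56, 9.11 and 8.29 on days 1, 3, 7, 14 and 28. The log2 ratios of this start were 0.73, 0.37, -0.07, 0.63 and 0.50 at days 1, 3, 7, 14 and 28, under the threshold at each day. It is not counted among the 9 genes above.

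For each of the 5 members past the threshold, the 3 genes with the nearest time course were sought among 11556 other genes listed in all 6 libraries. Nearest to Anxa2 were Tagln2, an actin-binding protein of the transgelin family (distance 0.299), Cbr2 (0.632) and Angptl4 (0.666). Tagln2 had 3.33 FPKM in control and 11.98, 15.4, 12.9, 10.7 and 4.16 on days 1, 3, 7, 14 and 28. Tagln2 was also among the nearest genes of S100a11 (0.665), after Tspo, a protein of the outer mitochondrial membrane used as a marker of glial activation (0.570), and the protease inhibitor Spint1 (0.603). Nearest to Anxa1 were Parp3 (0.398), the TNF receptor Tnfrsf1a (0.496) and the actin-related subunit Arpc1b (0.529). Anxa3 had the closest neighbours, with the endocytic protein Ehd4 (0.195), the tetraspanin Cd9 (0.258) and the actin-binding protein Cotl1 (0.275). Those of Anxa4 were the potassium chloride cotransporter Slc12a7 (0.287), Arhgap25 (0.356) and Xlr (0.397). Cbr2, Angptl4, Spint1, Slc12a7, Arhgap25 and Xlr had low control values, from 0.148 FPKM (Cbr2) to 0.743 (Arhgap25), so their ratios are less certain.

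Other genes of the same 2 families were examined beside the members. Of the 4 other annexins (Anxa8, Anxa9, Anxa10 and Anxa13), Anxa9 and Anxa13 were listed in no library, and Anxa8 and Anxa10 stayed under 1 FPKM, with a summed level of 0.602 FPKM in control and at most 1.33, at day 14. Of 14 other S100 genes, 10 were listed. Higher were 4 of 9, 3 of 7, 2 of 6, 4 of 8 and 2 of 7 compared on days 1, 3, 7, 14 and 28, with 0 lower, and the median log2 ratio of those compared lay between 0.06 at day 28 and 1.096 at day 14. None of these list values was corrected for transcript length. Of the genes higher on any day, only the locus assigned to S100a7a had 1 FPKM or more in control. S100a4, S100a5, S100a8 and S100a9 were under 1 FPKM or not listed there, and were compared only on days when they were high. S100a4, a motility-related S100 protein, was higher at all 5 days, with 0.739 FPKM in control and 6.36, 7.92, 10, 12.6 and 2.17 on days 1, 3, 7, 14 and 28. S100a6 had no event of its own, and the locus assigned to S100a7a, counted as higher in this list on days 3, 7 and 14, begins at the annotated start of S100a6 (chr3:90612882). This start had 15.2 FPKM in control and 15.9, 46.1, 34.2, 36.8 and 15.9 on days 1, 3, 7, 14 and 28. Its dip at day 7 between days 3 and 14 was also seen in S100a11 as deposited. Corrected for transcript length, the log2 ratio of S100a11 was 1.77 at day 7 and 1.82 at day 14, nearly level. The S100a6 start was not corrected.

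Known partners and receptors of annexins were given beside them from a list of 9 genes, of which 7 were listed and 6 compared at each day. Higher were 1, 2, 1, 1 and 1 genes and lower 2, 0, 2, 0 and 0 at days 1, 3, 7, 14 and 28, with a median log2 ratio of those compared between 0.04 at day 3 and 0.23 at day 1. The galectin Lgals3, a lectin of membrane repair and phagocytosis, was higher at all 5 days, with 0.386 FPKM in control and 6.48, 24.4, 36.7, 22.4 and 1.87 on days 1, 3, 7, 14 and 28. Ahnak, a scaffold that binds Anxa2 with S100a10, had 2.00 FPKM in control, 0.750 at day 1 and 4.59 at day 3, with log2 ratios of -1.31 and 1.16. The 2 genes lower at day 1, Ahnak and Dysf, have long transcripts, of up to 18100 nt and 6803 nt. Their ratios were not corrected for the trend with transcript length at that day. Of the formyl peptide receptors on which Anxa1 acts, Fpr1 and Fpr2 were listed in no library. Fpr3, whose annotated span overlaps that of Fpr2, reached at most 0.621 FPKM, at day 1, and was not compared. The Anxa7 partner sorcin (Sri) had 18.4 FPKM in control and 19.9, 17.4, 3.804, 16.3 and 16.1 on days 1, 3, 7, 14 and 28, so day 7 alone was low.

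Among 8 genes of the plasminogen system, on which Anxa2 and S100a10 act, 7 were listed. Higher were 1 of 5, 3 of 6, 3 of 6, 3 of 6 and 1 of 4 compared on days 1, 3, 7, 14 and 28, with 0 lower, and their median log2 ratio lay between 0.17 at day 28 and 1.02 at day 7. Plau and Plaur were under 1 FPKM or not listed in control and were compared only on days when they were high. These counts and medians therefore depend on the minimum, and of the genes called only Plgrkt was compared at every day. Plau, the urokinase activator, had 0.783 FPKM in control and 0.937, 4.09, 7.78, 2.42 and 0.832 on days 1, 3, 7, 14 and 28. Its receptor Plaur was not listed in control or at day 28 and had 2.08, 1.67, 2.05 and 1.47 FPKM on days 1, 3, 7 and 14. Plgrkt, a plasminogen receptor of the membrane, was past the threshold from day 3 to day 28, with 3.52 FPKM in control and 10.9 at day 7. Plg itself was listed in no library.

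Genes that expose or recognise phosphatidylserine, the lipid that Anxa5 binds, were a list of 13 genes, of which 12 were listed and 11 compared at each day. Higher were 1, 2, 2, 1 and 0 genes and lower 0, 0, 0, 1 and 1 at days 1, 3, 7, 14 and 28, and the median log2 ratio lay between -0.07 at day 28 and 0.36 at day 7. The lower gene was Xkr8, whose call at day 28 rests on its missing entry at that day. The scavenger receptor Stab1 had 4.02 FPKM in control and 2.93, 18.5, 18.3, 11.2 and 2.27 on days 1, 3, 7, 14 and 28. Pros1, which bridges phosphatidylserine to TAM receptors, had 3.65 FPKM in control, 11.1 at day 3 and 9.91 at day 7. Of 12 genes of plasma membrane repair, 11 were listed, and 3 of 11, 4 of 10, 4 of 10, 2 of 10 and 1 of 9 compared were higher on days 1, 3, 7, 14 and 28, with 1 lower, Capns1 at day 7. The call of Trim72 at day 1 rests on its missing entry in control. The median log2 ratio of this list lay between 0.33 at day 7 and 0.73 at day 3. The calpain Capn2 had 15.3 FPKM in control and 38.4, 32.8, 31.7, 42.0 and 38.6 on days 1, 3, 7, 14 and 28, and was the gene of this list called at day 28. These values came from transcript ends, and its summed starts had 15.2 FPKM in control and 11.9, 5.66, 7.31, 11.04 and 13.6 on the same days, so starts and ends of Capn2 went in opposite directions and its calls depend on the event used. Vps4b, a motor of ESCRT repair, had 2.88 FPKM in control, 10.1 at day 1 and 8.33 to 8.93 from day 3 to day 14.

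Markers of other cell types were examined beside the annexins and S100 genes. Of 8 markers of microglia and macrophages, 7 were listed, Itgam in no library and Cx3cr1 and Tmem119 not in control, and their sum was 51.6 FPKM in control and 41.1, 104, 110.3, 91.5 and 49.9 on days 1, 3, 7, 14 and 28. Higher were 0 of 5, 4 of 5, 3 of 5, 4 of 6 and 0 of 4 compared on days 1, 3, 7, 14 and 28, the most abundant being Csf1r, and P2ry12 was lower at day 1. The count at day 14 includes Cx3cr1, whose call rests on its missing entry in control. Of 7 markers of monocytes and neutrophils, 5 were listed (Ly6g and Mpo in no library), with a sum of 6.80 FPKM in control and 27.6, 140.4, 359, 209 and 27.9 on days 1, 3, 7, 14 and 28. Higher were 2 of 3, 3 of 3, 1 of 1, 4 of 4 and 2 of 2 compared on days 1, 3, 7, 14 and 28. Only Lyz2 had 1 FPKM or more in control. S100a8, S100a9 and Ly6c2 were compared only on days when they were high, so these shares follow from the minimum. S100a9 and Ly6c2 were not listed in control, and their calls rest on that missing entry. At day 1 S100a9 and S100a8 added 10.1 and 6.18 FPKM, and in the other 5 libraries the sum was nearly all Lyz2, which had 6.73 FPKM in control and 11.05, 137, 357, 196 and 26.2 on days 1, 3, 7, 14 and 28.

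All 6 astrocyte markers were listed, and their sum was 356 FPKM in control and 624, 1194, 786, 678 and 421 on days 1, 3, 7, 14 and 28. Higher from day 1 to day 14 were Gfap, the most abundant in the post-stroke libraries, and Vim, 2 of 6, and none at day 28. The other 4 passed the threshold at no day, and the list's median log2 ratio was 0.07, 0.65, 0.26, -0.05 and 0.03 on days 1, 3, 7, 14 and 28. Vim had 15.5 FPKM in control and 64.2, 167, 81.5, 67.6 and 21.04 on days 1, 3, 7, 14 and 28, and was thus highest on the same day as Anxa1 and Anxa2. All 6 markers of fibroblasts and meninges were listed, with a sum of 28.1 FPKM in control and 30.4, 89.3, 109, 97.0 and 27.9 on days 1, 3, 7, 14 and 28, Dcn being the most abundant in each library but day 7 and 0, 5, 4, 5 and 0 of 6 higher at days 1, 3, 7, 14 and 28. The 5 endothelial markers, of which Cldn5 was listed at day 1 only and Pecam1 was the most abundant in each library but day 7, summed to 10.19 FPKM in control and 11.04, 19.3, 10.8, 9.18 and 8.94 on days 1, 3, 7, 14 and 28. Of these, 1 of 5 was higher at day 1 and 2 of 4 at day 3, and 1 was lower at day 1 and 1 at day 14. The higher call at day 1 (Cldn5) and the lower call at day 14 (Flt1) each rest on a missing entry. The part of these cell types in the levels of the annexins and S100 genes was not tested.

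The label of the tissue was checked with further markers. All 6 neuron markers were listed, with a sum of 1575 FPKM in control and 1428, 1204, 1167, 1003 and 1328 on days 1, 3, 7, 14 and 28, Snap25 being the most abundant and 1 of 6, Map2 at day 14, lower past the threshold. All 5 oligodendrocyte markers were listed, led by Mbp, with sums from 1548 FPKM at day 28 to 2177 at day 1 and 1716 in control, and 1 of 5, Mag at day 7, was higher. Choroid plexus markers, 5 of 5 and led by Ttr, summed to 289 FPKM in control and 468, 185, 349, 299.6 and 565 on days 1, 3, 7, 14 and 28, and Folr1 was higher at days 1 and 28. Striatal markers, 4 of 5 and led by Ppp1r1b (Drd1 was listed in no library), summed to 175 FPKM at day 7 to 337 at day 28 and 256 in control, with 0 past the threshold. Markers of red blood cells, 4 of 5 and led by Hba-a2 in each library but day 3 (Hba-a1 was listed in no library), summed to 159.7 FPKM at day 7 to 477 at day 3 and 293 in control, and Alas2 was higher at day 3. The sums of choroid plexus and striatal markers thus differed between libraries, though of their genes only Folr1 passed the threshold. The part of neighbouring structures and of blood in the levels of the annexins and S100 genes was not tested.

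**Figure D5:**
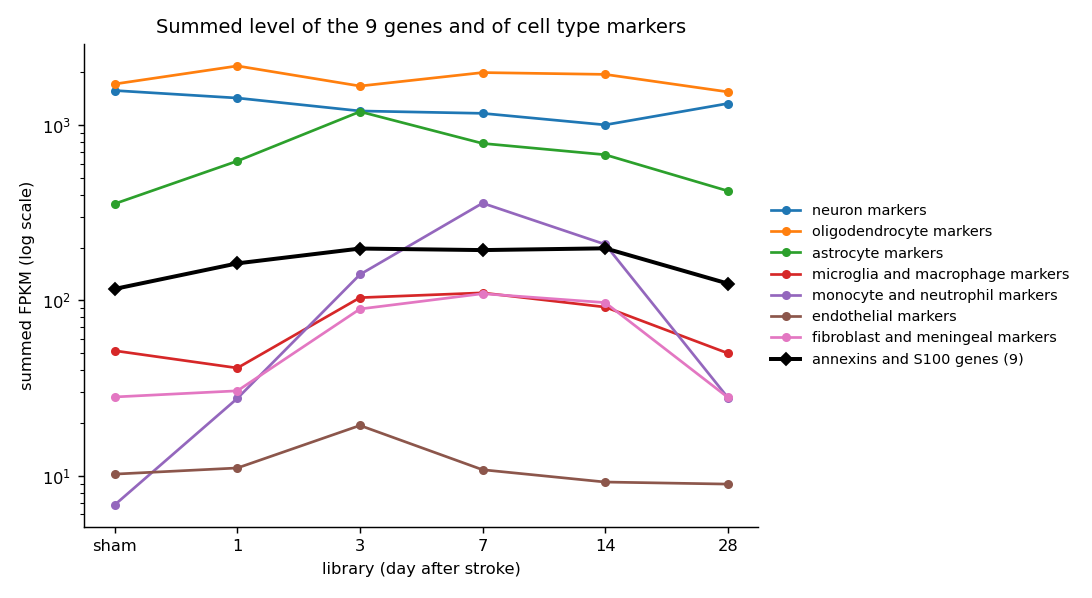
Summed FPKM (y axis, log scale) in the 6 libraries (x axis) of the 9 annexins and S100 genes with a value (black) and of 7 lists of cell type markers (colours). The black line goes from 116 in control to 198 at day 14 and 124.7 at day 28, and the monocyte and neutrophil list covers the widest range, from 6.80 in control to 359 at day 7.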

How the data were processed

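Poly(A) RNA-seq of the ipsilateral cortex was analysed in 6 libraries, grouped by GEO's treatment labels. The values deposited by the authors are FPKM of single events, which are starts, ends or splicing alternatives of transcripts. The submitters' processing notes name Trimmomatic 0.30, HISAT2 2.0.1, HTSeq 0.6.1 and the mm10 build, without their roles, and the tool that made the event values is not given in the sources used here. Isoform values are estimates from short reads, and the depth per library is unknown, so no interval is given.

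Repeated lines were dropped. The value of a gene was the largest of its summed starts, its summed ends and any single event. The design had assumed 1 FPKM per gene, so this value had to be built. Of 15441 identifiers, 15411 matched GENCODE M21 (GRCm38). Of the events, 93.4% overlapped the span of their gene. A gene not listed in a library was taken as 0 in calls and medians, with no ratio given for it alone. Log2 ratios used a pseudocount of 0.1 FPKM, a minimum of 1 FPKM in 1 of the 2 libraries and a threshold of 1, with no test, since each group had 1 library. Exon inclusion needed 5 FPKM with and without the exon together in both libraries, and 20 points counted as a shift. The exon settings, the start analysis of Anxa2, the promoter motifs and the loci of Anxa11 and S100a6 were chosen after the values were seen.

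The genes named are the members, genes of 16 lists (other annexins, other S100 genes, annexin partners, plasminogen system, phosphatidylserine, membrane repair and 10 lists of cell type or tissue markers) and, for each member past the threshold, the 3 with the nearest profile among genes listed in all 6 libraries with 1 FPKM in any. Values are given for some list genes past the threshold on any day, chosen by their known link to a member or as the most abundant. A gene of the plasminogen system is not reported here and is in none of its counts. Members and lists were chosen with earlier results of these data known. Promoters are from RefSeq (GRCm38.p6) and exons from GENCODE M21. Alternatives covered the pseudocount, the minimum, the threshold, the gene value, the scaling and a correction for transcript length over 20 bins. The scripts were tested on simulated data. The software was Python 3.11.15 with matplotlib 3.10.9, scipy 1.17.1, pandas 2.3.3 and numpy 2.4.6.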

Additional observations from a re-analysis of the deposited data

How the results depend on the processing

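No paired analysis was possible because each group had 1 library and the labels carry no replicate numbers that link mice across groups, and for the same reason no library could be left out of a group. Of 191 called log2 ratios of single members recomputed under the alternatives, 169 kept their call and 22 lost it, and of 309 not called 1 gained a call (Anxa3 at day 14 from summed ends). A threshold of 2 accounted for 12 of the 22, the minimum of 5 FPKM for 6 (Anxa1 on days 1, 3, 7 and 14 and Anxa4 on days 3 and 14), and the pseudocount of 1 FPKM and the correction for transcript length for 2 each, at Anxa1 on days 1 and 14.

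With a log2 threshold of 2, higher were 0, 2, 2 and 1 of the 9 members on days 1, 3, 7 and 14. Among all genes 210, 359, 418, 363 and 142 were higher at days 1, 3, 7, 14 and 28. The genes compared on these days numbered 11790, 12052, 12069, 12045 and 11751. With a minimum of 5 FPKM, which leaves fewer genes to compare, the members higher on days 1, 3, 7 and 14 numbered 2, 3, 4 and 2. Among all genes 241, 336, 361, 429 and 140 were then higher at the 5 days. How many genes were compared with this minimum, or with none, is not given, so these counts yield no shares. With no minimum, the numbers of all genes higher were 1307, 1903, 2003, 1822 and 1114, and with a pseudocount of 1 FPKM 376, 622, 659, 691 and 241. With no minimum the members higher were the same, and with the pseudocount of 1 FPKM Anxa1 was lost on days 1 and 14. Of the genes in the 16 lists, 14, 30, 23, 24 and 8 were higher on days 1, 3, 7, 14 and 28. With a log2 threshold of 2 these numbers were 9, 12, 13, 14 and 3. With a minimum of 5 FPKM they were 9, 20, 19, 18 and 4.

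Counting a gene only where neither library lacked it, an alternative chosen after the values were seen, 477, 844, 838, 889 and 348 genes were higher. Of all calls at day 14, 56.4% were higher ones as deposited, 49.6% after scaling by the median ratio and 51.6% after the correction for length.

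What limits these values is the single library per group, the unknown depth and the splitting of reads among overlapping transcripts and joined loci.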
